A study of Homo sapiens with 6 samples.

Results

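The RAB family is the largest branch of the RAS-like small GTPases, and its genes were examined here in U87MG cells, an established human glioblastoma line, after exposure to the ferroptosis activator RSL3. Members were chosen by name alone: every protein-coding gene whose symbol is RAB followed by a number and at most 1 letter. This gave 63 genes of the 65988 gene identifiers in the count tables. Of these, 56 passed the filter on low counts and were tested, among 16105 genes tested in all.

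RAB proteins are molecular switches. Bound to GTP, each RAB sits on its own membrane compartment and recruits effectors, such as motor adaptors, tethers and fusion factors, that form, move or dock vesicles. Guanine nucleotide exchange factors (GEFs) switch RABs on, GTPase-activating proteins (GAPs) switch them off, and GDP dissociation inhibitors (GDIs) hold the inactive, lipid-tailed proteins in the cytosol. In ferroptosis, an iron-dependent death by lipid peroxidation, the study asked which genes respond to RSL3, an inhibitor of the lipid hydroperoxide reductase GPX4, and it counted RAB1A and RAB10 among genes related to autophagy.

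Poly(A) RNA was sequenced from wild-type U87MG cells that received RSL3 at 2 µM in 3 libraries and vehicle, the control, in another 3. Treatment lasted 1 day, a time taken from the publication, since the sample labels name brain as the source and give none. The study describes its replicates in general as independent experiments or samples, and the labels do not say that these libraries came from separate cultures, so p-values measure the spread between these libraries of a single cell line. Each library held between 27813462 and 43306335 counts. Raw counts were scaled to the mean library size with edgeR's TMM factors to give normalized counts, and the groups were compared by edgeR's quasi-likelihood F test. Its p was adjusted for multiple testing over the whole table. A gene is called upregulated or downregulated in RSL3-treated cells at an adjusted p under 0.05. Such a change cannot tell less RNA per cell from fewer cells that contain it.

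The labelled cell type was checked against marker genes. The mesenchymal glioma markers VIM and CD44 stood at 68288 ± 967 and 24691 ± 570 normalized counts (SD, n = 3) in control cells and were lower after RSL3, at 55891 ± 1003 and 18878 ± 861. CHI3L1, a further glioma marker, fell from 6094 ± 329 to 4137 ± 295 (log2 fold change -0.56, adjusted p = 7.06e-09 in edgeR). The other glial markers were low or absent. GFAP, OLIG2 and NES stood at 104 ± 11.6, 295 ± 7.76 and 153 ± 4.91 normalized counts in control cells. Their means were higher after RSL3, at 138 ± 19.7, 323 ± 16.5 and 182 ± 26.8, and none was called. S100B and SOX2 were at or near 0, and AQP4 was at 0 in every library. The immune markers summed to between 6.47 and 16.0 normalized counts in control libraries and between 6.23 and 17.2 in RSL3 libraries, with AIF1 at 0. The 4 neuronal markers summed to 1028 to 1117 and 1128 to 1156, but SNAP25 fell (log2 fold change -1.04, adjusted p = 4.84e-05 in edgeR) and SYT1 rose (0.24, adjusted p = 0.00214). The 3 endothelial markers summed to 66.8 to 97.0 in control and 29.1 to 50.9 in RSL3 libraries. Most of this was VWF, which fell from 76.9 ± 14.5 to 30.2 ± 12.6 (log2 fold change -1.33, adjusted p = 0.00111 in edgeR). PECAM1 and CDH5 were near 0, with means of 4.50 and 2.72 in control and 4.87 and 3.52 in RSL3-treated cells. The part of these shifts in the RAB results was not tested.

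Of the 56 RAB genes tested, 22 were called, or 39.3%, against a background of 25.6% of all genes tested. Upregulated were 10 (17.9%, background 12.9%) and downregulated were 12 (21.4%, background 12.7%). RAB genes were often abundant: among genes with a mean normalized count of at least 1000 the background was 41.6%, and 16 of the 29 RAB genes at that level were called, or 55.2%. The changes were small. No member reached an absolute log2 fold change of 1, and 10 were called with one of at least 0.2 (17.9%, background 15.6%). The median log2 fold change was -0.03 over the tested members and -0.00 over all genes tested. In 27 members (48.2%, background 38.6%) the range of the RSL3 libraries did not meet that of the control libraries, and these include the 22 called. The study ran surrogate variable analysis before DESeq2. With 2 such variables estimated on the genes tested, which leaves 1 control library for the comparison, RAB27B, RAB31, RAB30, RAB1A and RAB2A were called among members and no upregulated one. With the variables estimated on genes with a mean count over 1, 5 upregulated and 8 downregulated members were called.

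**Figure D1:**
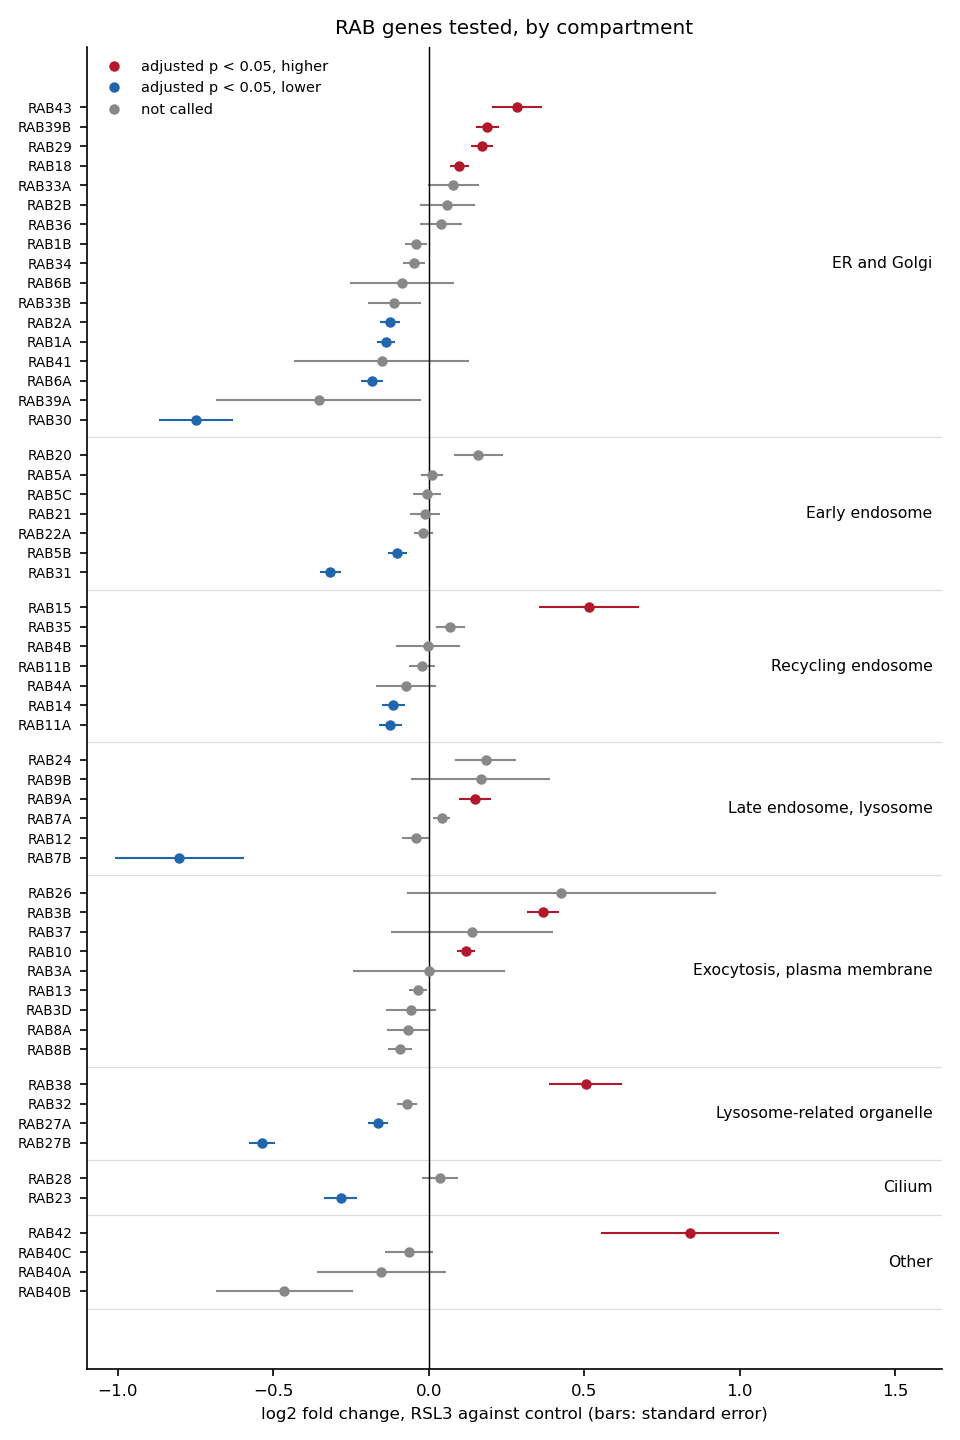
Each point is the log2 fold change of 1 tested RAB gene, RSL3-treated against control cells (n = 3 libraries each), with a bar of 1 standard error from edgeR's fit, grouped by compartment. Points run from RAB7B at -0.80 to RAB42 at 0.84, and called genes of both directions sit in 4 of the 8 groups.

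Grouped by the compartment each RAB is best known for, both directions were seen. The background over all genes tested was 12.9% upregulated and 12.7% downregulated, and it was not matched for count. In the endoplasmic reticulum and Golgi group of 20 genes, 17 were tested, of which 4 were upregulated and 4 downregulated (23.5% each). In the early endosome group of 8, 7 were tested, none was upregulated and 2 were downregulated (28.6%). In the recycling endosome group of 8, 7 were tested, with 1 upregulated (14.3%) and 2 downregulated (28.6%). The 6 late endosome, lysosome and autophagosome genes were all tested, with 1 call in each direction (16.7% each). Of 10 exocytosis and plasma membrane genes, 9 were tested, 2 were upregulated (22.2%) and none was downregulated. The 4 genes of lysosome-related organelles, such as melanosomes and secretory granules, gave 1 upregulated (25%) and 2 downregulated (50%) genes. RAB23, of the 2 cilium genes, was downregulated (50%), and RAB42, of 5 genes with other or unsettled sites (4 tested), was upregulated (25%). Most groups are small, so 1 call moves their shares far, and no difference between compartments was tested.

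The 7 members left untested were at or near 0. RAB19 had no count in any library, which allows up to 3 counts in each, for counting error only. RAB17, RAB25, RAB3C, RAB44 and RAB6D had 1 count over all 6 libraries, and RAB6C had 27, at most 9 in 1 library. RAB17 and RAB25 are best known from epithelial cells and RAB3C from neurons.

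Levels between genes were compared as CPM (counts relative to library size) per kilobase, over the union of each gene's exons in GENCODE v44. This length understates genes with rarely used exons. It also keeps bases that exons of other genes cover, where reads may not have been counted, such as 24.8% in RAB13 and 22.9% in RAB1A. On this scale 43 members had a mean level of at least 1, 29 of at least 10 and 3 of at least 100. RAB32, which acts on mitochondria-associated membranes and melanosomes, was highest at 189 ± 6.21 in control and 180 ± 3.38 in RSL3-treated cells (SD, n = 3). RAB10 and RAB1A followed, then RAB13 and RAB7A. RAB1A and RAB10 were at 130 ± 1.67 and 125 ± 1.02 in control cells and at 118 ± 1.56 and 136 ± 2.96 in RSL3-treated cells. Their order in control cells rests on the exon lengths used, since RAB10 had the higher normalized count in every library. The 4 most abundant members made up 43.5% of the summed level of all members, and the 10 most abundant 64.7%.

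**Figure D2:**
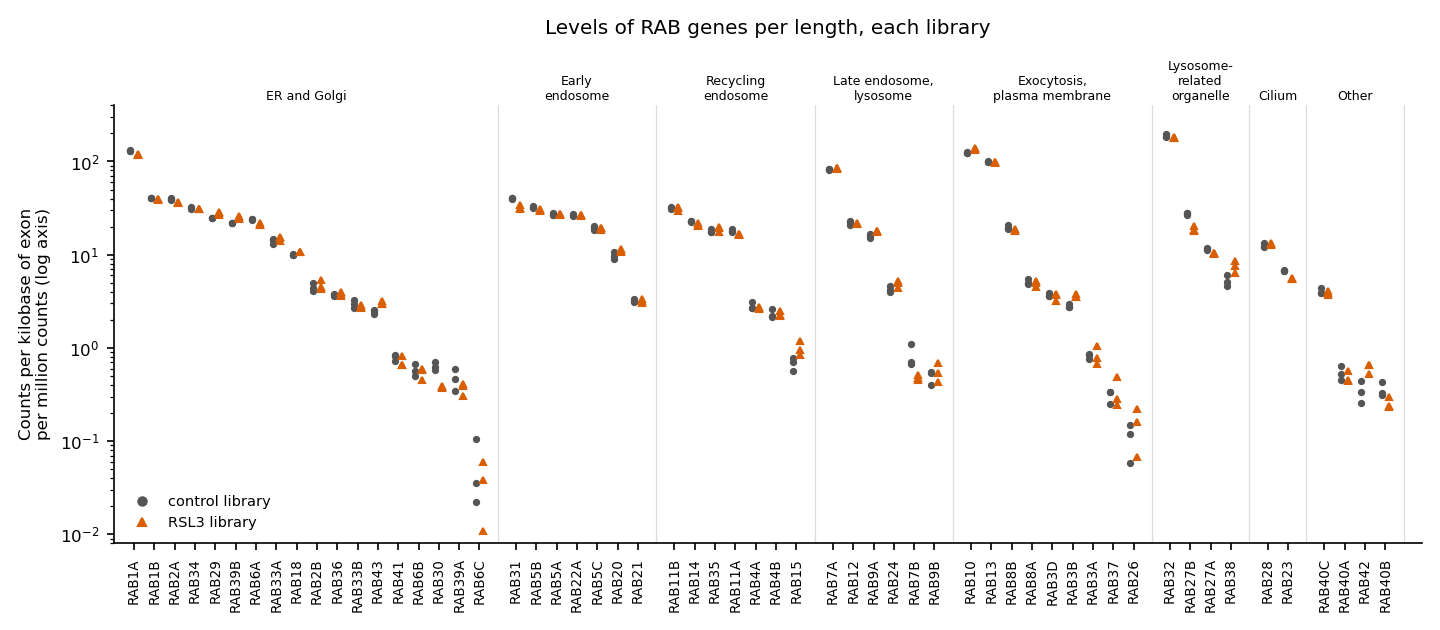
Level of each RAB gene in every library, in CPM per kilobase of exon on a log axis, by compartment and ordered by mean level; circles are control and triangles RSL3 libraries, and 6 members with a mean level under 0.01 are not drawn. RAB32, RAB10 and RAB1A have mean levels above 100 and RAB6C is lowest of those drawn.

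Summed over each compartment on the same scale, the level of all members was 1248 ± 8.78 in control and 1218 ± 5.60 in RSL3-treated cells, and the groups did not overlap. The early endosome sum went from 159 ± 0.22 to 150 ± 3.22, the sum for the endoplasmic reticulum and Golgi from 352 ± 5.15 to 340 ± 0.83, and that for lysosome-related organelles from 233 ± 4.96 to 217 ± 3.13. The exocytosis and plasma membrane sum went the other way, from 257 ± 0.57 to 265 ± 2.72, as did the late endosome and lysosome sum, from 126 ± 2.80 to 130 ± 1.15. None of these groups of 3 libraries overlapped. The recycling endosome sum, 96.4 ± 1.88 against 93.9 ± 2.83, did overlap. Single genes carried several of these sums. To show this, each sum was also taken without the member whose mean level changed most. As that member was picked from these same values, a weaker difference without it is not separate evidence. Without RAB10 the exocytosis and plasma membrane sum was lower in RSL3-treated cells, at 132 ± 1.00 in control and 129 ± 1.66 after RSL3. Without RAB1A the endoplasmic reticulum and Golgi sum was 222 ± 3.65 against 222 ± 0.79, and without RAB31 the early endosome sum was 119 ± 0.97 against 117 ± 2.13, both with overlap. The late endosome and lysosome sum overlapped without RAB7A, at 43.7 ± 1.53 against 45.1 ± 0.76. The sum for lysosome-related organelles did not overlap without RAB32, at 44.4 ± 1.26 against 36.8 ± 0.44. This remaining fall lay mostly in RAB27B, which went from 27.6 ± 0.69 to 19.0 ± 1.31, nearly as large a change as that of RAB32. RAB27A went from 11.6 ± 0.22 to 10.3 ± 0.19, and RAB38 rose from 5.25 ± 0.71 to 7.49 ± 1.07. The sum without RAB27B is not given. These sums were not tested.

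Because paralogues share sequence, the stretches of coding sequence in which pairs are most alike were compared to see how far reads could be told apart. The 75-base windows shown are those with the fewest differences between the paralogues, with differing bases in capitals, taken from GENCODE v44 transcripts on hg38 and written 5′ to 3′ on the coding strand. Each spans 1 splice junction, so its genomic span holds an intron, except in the single-exon RAB6C. RAB27A and RAB27B, shown because RAB27B changed most firmly, differ at 15 of 75 bases there, and RAB6A and RAB6C at 0.
RAB27A (chr15:55223971-55228641, minus strand, exons 5 and 6): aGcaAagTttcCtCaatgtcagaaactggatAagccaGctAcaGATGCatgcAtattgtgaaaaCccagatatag
RAB27B (chr18:54884404-54888036, plus strand, exons 4 and 5): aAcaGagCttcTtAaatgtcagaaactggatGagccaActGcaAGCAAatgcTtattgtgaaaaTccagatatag
RAB6A (chr11:73716298-73718622, minus strand, exons 4 and 5): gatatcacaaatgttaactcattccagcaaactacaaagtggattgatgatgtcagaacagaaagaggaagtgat
RAB6C (chr2:129980395-129980469, plus strand, exon 1): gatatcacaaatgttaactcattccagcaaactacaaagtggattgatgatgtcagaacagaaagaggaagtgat
Over the whole aligned coding sequence, identity was 69.4% for RAB27A and RAB27B, 76.5% for RAB1A and RAB1B and 91.8% for RAB6A and RAB6C. Values of RAB6A, RAB6C and RAB6D are therefore uncertain as a split between genes, although RAB6C and RAB6D held 27 and 1 counts in all. Other genes cover more than 10% of the exon bases of 15 members, among them RAB13 (24.8%), RAB1B (43.8%) and 3 called members, RAB1A, RAB23 and RAB43.

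Lysosome-related organelles and secretion held the member with the smallest p. RAB27B (ENSG00000041353, chr18:54717860-54895516), which docks secretory and exosome-bearing vesicles at the plasma membrane, had 6542, 6777 and 6867 normalized counts in control replicates 1, 2 and 3 and 4543, 4377 and 4994 in RSL3 replicates 1, 2 and 3. All RSL3 libraries lay far below all control libraries. The mean fell from 6729 ± 168 to 4638 ± 319 (SD, n = 3), a log2 fold change of -0.54 (adjusted p = 3.17e-09 in edgeR, standard error 0.04).

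Its paralogue RAB27A (ENSG00000069974, chr15:55202966-55319113), which tethers melanosomes and lytic granules, was also downregulated, by less. It had 4387, 4554 and 4472 normalized counts in control and 3992, 3916 and 4065 in RSL3 libraries, with a log2 fold change of -0.16 (adjusted p = 0.000828 in edgeR, standard error 0.03). On the scale per length, RAB27A made up 29.5 ± 0.37% of the summed RAB27 level in control and 35.2 ± 1.14% in RSL3-treated cells (SD, n = 3), and the groups did not overlap.

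RAB38 (ENSG00000123892, chr11:88113251-88175443), which delivers melanogenic enzymes to melanosomes, was upregulated. Its normalized counts were 248, 226 and 294 in control and 374, 413 and 309 in RSL3 libraries, so the lowest RSL3 library lay just above the highest control library. The log2 fold change was 0.51 (adjusted p = 0.00270 in edgeR, standard error 0.12). Its abundant paralogue RAB32 had 7078, 6867 and 6627 in control and 6677, 6495 and 6443 in RSL3 libraries, overlapping groups with a log2 fold change of -0.07 (adjusted p = 0.134 in edgeR). RAB38 accordingly went from 2.71 ± 0.43% to 3.99 ± 0.54% of the summed level of RAB32 and RAB38. Among the 4 melanocyte markers, MITF, a transcription factor of the pigment lineage, fell from 449 ± 38.3 to 327 ± 25.4 normalized counts (log2 fold change -0.46, adjusted p = 0.000834 in edgeR), PMEL and MLANA had control means of 30.4 and 19.9 and RSL3 means of 37.5 and 22.2, and TYR was at 0 in every library. The 4 summed to 461 to 562 in control and 362 to 412 in RSL3 libraries. The part of MITF in the RAB27A, RAB32 and RAB38 values was not tested.

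**Figure D3:**
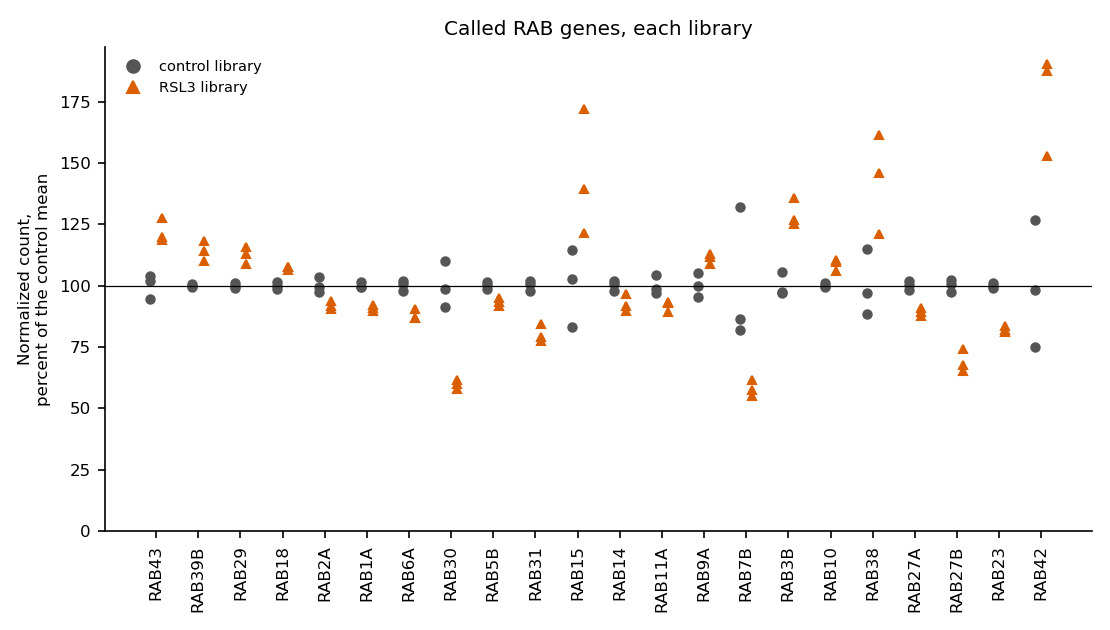
Normalized count of each of the 22 called RAB genes in every library, as a percentage of that gene's control mean; circles are control and triangles RSL3 libraries (n = 3 each). In every gene drawn the triangles lie on one side of the circles, with RAB30, RAB7B and RAB27B lowest against control and RAB42 highest.

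Early endosome RABs, which sort freshly internalized cargo, held 2 downregulated genes (28.6% of those tested, background 12.7%) and no upregulated one (background 12.9%). RAB31 (ENSG00000168461, chr18:9708275-9862551), which works between the trans-Golgi and endosomes and in receptor trafficking, had 7353, 7645 and 7550 normalized counts in control and 5830, 5933 and 6332 in RSL3 libraries. The groups were well apart, with a log2 fold change of -0.32 (adjusted p = 5.28e-07 in edgeR, standard error 0.03). RAB22A, its closest paralogue, had 8480 ± 248 in control and 8378 ± 162 in RSL3-treated cells (SD, n = 3), with a log2 fold change of -0.02. Its share of their summed level per length went from 40.0 ± 0.54% to 45.1 ± 0.81%, without overlap.

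RAB5B (ENSG00000111540) was lower by less, with 7218, 7114 and 7316 normalized counts in control and 6613, 6727 and 6849 in RSL3 libraries (log2 fold change -0.10, adjusted p = 0.0180 in edgeR, standard error 0.03). This call was lost without control replicate 3 (adjusted p = 0.0672), RSL3 replicate 1 (0.0973) or RSL3 replicate 2 (0.0669). RAB5A and RAB5C, the other isoforms of the master regulator of early endosome fusion, had log2 fold changes of 0.01 and -0.01. Those of RAB21, RAB22A and RAB20 were -0.01, -0.02 and 0.16, and none of these 5 passed the test.

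In the endoplasmic reticulum and Golgi group, the member with the largest fall was RAB30 (ENSG00000137502, chr11:82973133-83071923), a Golgi RAB also linked to autophagosomes that trap bacteria. It had 254, 235 and 283 normalized counts in control and 154, 148 and 158 in RSL3 libraries. No RSL3 library came near the control range, and the log2 fold change was -0.75 (adjusted p = 6.10e-05 in edgeR, standard error 0.12).

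RAB1A (ENSG00000138069, chr2:65070696-65130331), which drives transport from the endoplasmic reticulum to the Golgi and early autophagosome formation, was the most abundant of the group per length. Its normalized counts were 14542, 14540 and 14867 in control and 13138, 13490 and 13326 in RSL3 libraries, with no overlap. The log2 fold change was -0.14 (adjusted p = 0.000874 in edgeR, standard error 0.03). The study named RAB1A from these libraries, so this call is not independent evidence. The opposite-strand gene CEP68 covers 22.9% of the exon bases of RAB1A, and without strand the counting cannot separate reads there.

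RAB1B had 2691 ± 13.1 and 2618 ± 22.7 normalized counts (SD, n = 3), a log2 fold change of -0.04 that did not pass the test, although the RSL3 libraries were all below the control libraries. RAB6A, which runs retrograde and post-Golgi carriers, had 3889, 4053 and 4017 normalized counts in control and 3458, 3464 and 3609 in RSL3 libraries (log2 fold change -0.18, adjusted p = 0.000424 in edgeR). RAB2A, a Golgi and autophagosome-lysosome fusion factor, had 7479, 7343 and 7781 in control and 6802, 6893 and 7054 in RSL3 libraries (log2 fold change -0.12, adjusted p = 0.00616 in edgeR). In both genes the highest RSL3 library was below the lowest control library.

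The 4 upregulated genes of this group were RAB43, RAB39B, RAB29 and RAB18. RAB39B (ENSG00000155961, chrX:155258235-155264491), mutated in an X-linked intellectual disability with parkinsonism, had 2564, 2542 and 2536 normalized counts in control and 3007, 2902 and 2802 in RSL3 libraries (log2 fold change 0.19, adjusted p = 0.000674 in edgeR, standard error 0.04). RAB29 (ENSG00000117280, chr1:205767986-205775482), which recruits the kinase LRRK2 to Golgi and lysosomal membranes, had 3259, 3313 and 3285 in control and 3808, 3714 and 3579 in RSL3 libraries (log2 fold change 0.17, adjusted p = 0.000873 in edgeR, standard error 0.04). Both rose in every RSL3 library by several times the spread of the control libraries.

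RAB18, a lipid droplet and endoplasmic reticulum RAB, had 4841, 4901 and 4973 normalized counts in control and 5206, 5280 and 5269 in RSL3 libraries (log2 fold change 0.10, adjusted p = 0.0237 in edgeR). The RAB18 call was lost without control replicate 1 (adjusted p = 0.0726), control replicate 2 (0.0520), RSL3 replicate 1 (0.0512) or RSL3 replicate 2 (0.0858). RAB43 had 437, 396 and 427 in control and 498, 536 and 503 in RSL3 libraries (log2 fold change 0.28, adjusted p = 0.0116 in edgeR), and lost its call without RSL3 replicate 2 (adjusted p = 0.0671). RAB43 is uncertain as a gene, since the readthrough gene ISY1-RAB43 covers 79.3% of its exon bases and 67.8% of its 75-base windows occur elsewhere in the genome. The 9 tested members of the group that did not pass the test had log2 fold changes from -0.35 in RAB39A, at 30.1 normalized counts in control cells, to 0.08 in RAB33A.

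Among the recycling endosome RABs, which return receptors to the surface, RAB11A (ENSG00000103769) had 3650, 3396 and 3446 normalized counts in control and 3117, 3252 and 3266 in RSL3 libraries (log2 fold change -0.12, adjusted p = 0.0175 in edgeR). RAB14, which links the Golgi, endosomes and recycling, had 3700, 3546 and 3648 in control and 3501, 3248 and 3324 in RSL3 libraries (log2 fold change -0.11, adjusted p = 0.0251 in edgeR). RAB15, known for slowing receptor recycling, went the other way at low counts, with 132, 95.9 and 118 in control and 140, 198 and 161 in RSL3 libraries (log2 fold change 0.52, adjusted p = 0.0212 in edgeR, standard error 0.16). In each of these genes the groups came close without overlapping.

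All recycling calls depended on single libraries. That of RAB11A was lost without control replicate 1 (adjusted p = 0.108) or RSL3 replicate 1 (0.0997). RAB15 lost its call without control replicate 2 (0.0770) or RSL3 replicate 2 (0.158), and RAB14 without control replicate 1 (0.0917), control replicate 3 (0.0686), RSL3 replicate 2 (0.147) or RSL3 replicate 3 (0.0726). RAB11B, the most abundant member of the group per length, had 2445, 2500 and 2558 normalized counts in control and 2586, 2469 and 2340 in RSL3 libraries, overlapping groups with a log2 fold change of -0.02. RAB35, RAB4A and RAB4B had log2 fold changes of 0.07, -0.07 and -0.00.

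The late endosome and lysosome group was led per length by RAB7A (ENSG00000075785, chr3:128693669-128825942), which governs late endosome and autophagosome fusion with lysosomes. It had 20442, 20302 and 19842 normalized counts in control and 20854, 20919 and 20589 in RSL3 libraries, the highest count of any member. The groups did not overlap, but the log2 fold change of 0.04 did not pass the test (adjusted p = 0.293 in edgeR).

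Its minor paralogue RAB7B, which acts between late endosomes and the trans-Golgi, had 137, 89.8 and 85.0 normalized counts in control and 59.8, 57.1 and 63.9 in RSL3 libraries. The log2 fold change was -0.80 (adjusted p = 0.00618 in edgeR, standard error 0.21), and it was -0.53 without control replicate 1, the high library, where the call was lost (adjusted p = 0.0946). RAB9A, which returns mannose 6-phosphate receptors to the trans-Golgi, had 1207, 1148 and 1095 in control and 1299, 1282 and 1251 in RSL3 libraries (log2 fold change 0.15, adjusted p = 0.0355 in edgeR). The RAB9A call was lost without control replicate 2 (adjusted p = 0.0672), control replicate 3 (0.150), RSL3 replicate 1 (0.113) or RSL3 replicate 2 (0.0991). RAB24, RAB12 and RAB9B had log2 fold changes of 0.18, -0.04 and 0.17 and did not pass the test.

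Of the RABs of exocytosis and the plasma membrane, RAB3B and RAB10 were called, both upregulated. With 2 surrogate variables in DESeq2, which leaves 1 control library, their log2 fold changes were 0.29 and 0.13. With the variables estimated on genes with a mean count over 1, both stayed called. RAB3B (ENSG00000169213, chr1:51907956-51990700), a regulator of secretory vesicle release, had 1191, 1187 and 1291 normalized counts in control and 1549, 1659 and 1527 in RSL3 libraries, far above the control range. The log2 fold change was 0.37 (adjusted p = 1.19e-05 in edgeR, standard error 0.05). Among the RAB3 genes its share of the summed level per length went from 38.3 ± 1.54% to 45.3 ± 3.82% (SD, n = 3), while RAB3A and RAB3D had log2 fold changes of 0.00 and -0.06.

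RAB10 (ENSG00000084733, chr2:26034084-26137454), which carries the glucose transporter GLUT4 and other cargo to the surface and is a substrate of LRRK2, had 15671, 15424 and 15497 normalized counts in control and 17167, 17019 and 16468 in RSL3 libraries. The mean rose from 15531 ± 127 to 16885 ± 368 (SD, n = 3), a log2 fold change of 0.12 (adjusted p = 0.00291 in edgeR, standard error 0.03). As with RAB1A, the study named it from these libraries. No other gene shares its exon bases.

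RAB13, a tight junction and plasma membrane RAB, had 9306, 9331 and 9395 normalized counts in control and 8927, 9220 and 9220 in RSL3 libraries, without overlap, and did not pass the test (log2 fold change -0.03, adjusted p = 0.444 in edgeR). RAB8B was similar, with 3399 ± 172 and 3181 ± 67.9 (log2 fold change -0.09, adjusted p = 0.0848 in edgeR), and passed only with the replicate number as a block. RAB8A had a log2 fold change of -0.07. RAB26 and RAB37 had means under 60 normalized counts and log2 fold changes of 0.43 and 0.14 with standard errors of 0.50 and 0.26.

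RAB23 (ENSG00000112210, chr6:57186992-57222307), a negative regulator of Hedgehog signalling at the cilium, had 1138, 1124 and 1112 normalized counts in control and 921, 911 and 940 in RSL3 libraries, a log2 fold change of -0.28 (adjusted p = 0.000297 in edgeR, standard error 0.05). The spread within each group was small against the gap. It is uncertain all the same, because the opposite-strand gene BAG2 covers 57.8% of its exon bases. RAB28, the other cilium gene, had 1016, 946 and 908 in control and 978, 1005 and 962 in RSL3 libraries (log2 fold change 0.04, adjusted p = 0.723 in edgeR).

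RAB42, a little studied member, had the largest log2 fold change and the lowest counts of the called members, with 26.7, 34.4 and 20.3 normalized counts in control and 51.7, 41.5 and 50.9 in RSL3 libraries. The log2 fold change was 0.84 (adjusted p = 0.0349 in edgeR, standard error 0.29). Its call was lost without control replicate 1 (adjusted p = 0.0853), control replicate 3 (0.135), RSL3 replicate 1 (0.105) or RSL3 replicate 3 (0.0896). The RAB40 proteins carry a SOCS box and serve in ubiquitin ligases. RAB40C had 625, 557 and 548 in control and 528, 549 and 580 in RSL3 libraries (log2 fold change -0.06, adjusted p = 0.603 in edgeR), and RAB40A and RAB40B had log2 fold changes of -0.15 and -0.46 that did not pass the test.

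**Figure D4:**
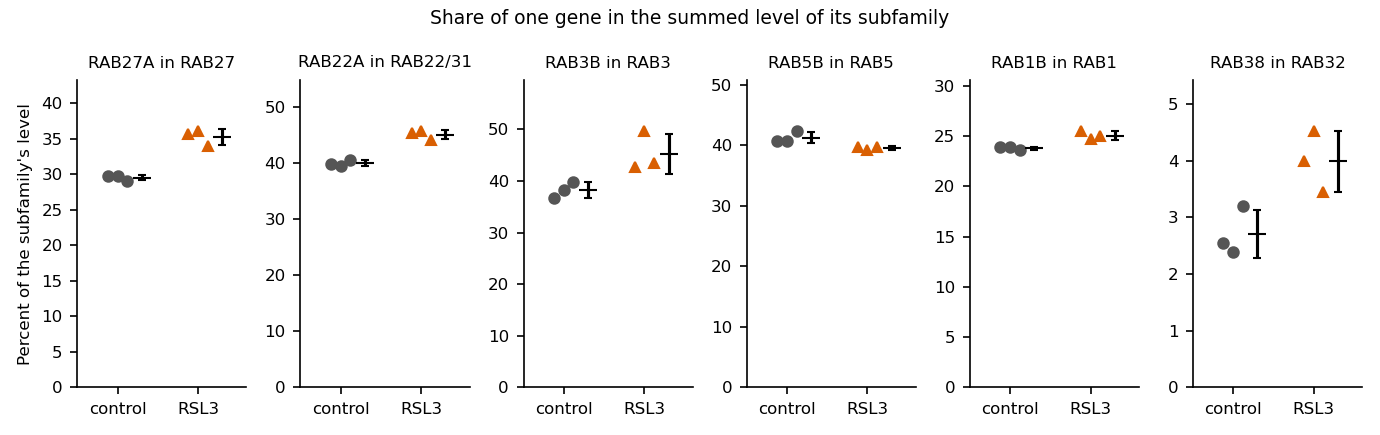
Share of 1 paralogue in the summed level of its subfamily, in percent of the summed CPM per kilobase, for 6 subfamilies; circles are control and triangles RSL3 libraries, and bars show the mean and SD (n = 3). RAB27A rose from 29.5% to 35.2% of the RAB27 level and RAB22A from 40.0% to 45.1% of the RAB22A and RAB31 level, without overlap between groups.

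Promoters were read as a further feature that the choice of members did not use. RefSeq (GRCh38.p14) gave the 300 bases from 250 before to 50 after the start for 50 of the 63 members. The GC box GGGCGG, the site of SP1-like factors, was found on either strand in 39 of 50 (78%), against 68.9% of promoters of genes tested and 45% of all promoters. CACGTG, the E-box also held in elements bound by TFEB and MITF, was found in 6 of 50 (12%), against 9.91% and 7.26%. TGACNNNGC, the core of antioxidant response elements, was found in 9 of 50 (18%), against 15.4% and 13.3%. These motifs do not contain each other, and a match is a description, not a bound site.

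Of the 7 upregulated members with a promoter sequence, 1 held CACGTG (RAB29) and 0 held TGACNNNGC. Of the 10 downregulated, 1 held CACGTG (RAB31) and 2 held TGACNNNGC (RAB30 and RAB5B). Of the 27 tested members with a promoter sequence that were not called, 4 held CACGTG (14.8%) and 7 held TGACNNNGC (25.9%). The sites of RAB29 and RAB31 are shown with the motif in capitals, followed by the 250 bases before the start of RAB27B and RAB3B, the down- and upregulated member with the smallest p, with GGGCGG or its reverse complement in capitals. All are written 5′ to 3′ on the gene's strand.
RAB29 (chr1:205775449-205775472, minus strand): gcaaccctgCACGTGacgcttgcg
RAB31 (chr18:9708232-9708255, plus strand): gccggcggcCACGTGacccaccgc
RAB27B (chr18:54828227-54828476, plus strand): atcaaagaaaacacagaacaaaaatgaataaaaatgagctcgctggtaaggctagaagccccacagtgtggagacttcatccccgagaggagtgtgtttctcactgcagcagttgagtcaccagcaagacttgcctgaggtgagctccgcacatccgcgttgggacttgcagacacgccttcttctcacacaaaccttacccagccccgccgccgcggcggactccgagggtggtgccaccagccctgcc
RAB3B (chr1:51990701-51990950, minus strand): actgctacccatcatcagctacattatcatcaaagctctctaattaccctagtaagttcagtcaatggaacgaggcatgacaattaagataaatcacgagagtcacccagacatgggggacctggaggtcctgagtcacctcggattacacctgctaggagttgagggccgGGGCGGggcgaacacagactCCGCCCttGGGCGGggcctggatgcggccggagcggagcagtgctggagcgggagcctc
The 250 bases shown for RAB27B hold none of the 3 motifs, and those for RAB3B hold the GC box 3 times and neither other motif. The promoter window used for the counts also runs past the start. Over that whole window RAB27B holds the GC box 1 time and RAB3B 3 times, so both are counted as members with a GC box. The RefSeq start used for RAB27B lies within the longer GENCODE gene.

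The genes that act on RABs were listed by role, as 157 regulators and effectors, of which 146 were tested, 29 upregulated (19.9%, background 12.9%) and 22 downregulated (15.1%, background 12.7%). In either direction 34.9% were called, against 25.6% of all genes tested and 41.6% of those with a mean normalized count of at least 1000. The backgrounds given for each list were not matched for count. The median log2 fold change of the regulators and effectors tested was 0.00. Among 10 genes for GDIs, escort proteins and prenylation, 2 were upregulated (20%, background 12.9%) and 3 downregulated (30%, background 12.7%). GDI2, which extracts inactive RABs from membranes, fell from 9609 ± 68.7 to 8558 ± 76.4 normalized counts (SD, n = 3, log2 fold change -0.17, adjusted p = 0.000156 in edgeR). The escort genes split, with CHM at 0.16 and its paralogue CHML at -0.28. ICMT, which methylates prenylated tails, was downregulated (log2 fold change -0.22), and RABGGTB, the catalytic subunit of the RAB prenyltransferase, was upregulated by 0.10, a call lost when any single library other than control replicate 3 was left out, with adjusted p between 0.0558 and 0.0953.

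Of 41 genes listed as GEFs, 38 were tested, 10 were upregulated (26.3%, background 12.9%) and 2 downregulated (5.26%, background 12.7%). The lists do not overlap, so a gene with both GEF and GAP roles counts in a single list. RAB3GAP1, whose name gives a GAP role, is among the upregulated genes of the GEF list (log2 fold change 0.15). SMCR8, of the C9orf72 complex, rose from 4890 ± 102 to 5943 ± 341 normalized counts (SD, n = 3, log2 fold change 0.28, adjusted p = 9.46e-06 in edgeR). DENND5B and DENND4B were upregulated by 0.18 and 0.21 on the log2 scale. The downregulated genes were RIN1, an activator of RAB5, at -0.25, and DENND6A, an activator of RAB14, at -0.26.

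Of 37 GAP genes, 35 were tested, 5 were upregulated (14.3%, near the background of 12.9%) and 9 downregulated (25.7%, background 12.7%). TBC1D4, the GAP that restrains RAB10 and GLUT4 delivery, had 1242, 1283 and 1499 normalized counts in control and 807, 758 and 964 in RSL3 libraries (log2 fold change -0.67, adjusted p = 1.37e-06 in edgeR). TBC1D16 and TBC1D9 were downregulated by less, with log2 fold changes of -0.20 and -0.23. TBC1D7, RABGAP1 and TBC1D20, a GAP for RAB1, were upregulated, with 0.27, 0.21 and 0.17. The counts of GEF and GAP genes were not compared by a test.

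Of 61 effector genes, 55 were tested, 11 were upregulated (20%, background 12.9%) and 7 downregulated (12.7%, the same as the background). UNC13D (Munc13-4), the priming factor that RAB27A engages, had 517, 476 and 544 normalized counts in control and 1087, 1063 and 898 in RSL3 libraries, a log2 fold change of 0.98 (adjusted p = 5.11e-09 in edgeR). Of other RAB27 effectors, SYTL1 was upregulated at 0.43 and SYTL3 downregulated at -0.30. SYTL2, SYTL4, MLPH and MYRIP did not pass the test, with log2 fold changes of -0.06, -0.07, -0.07 and 0.56, and SYTL5 was too low to be tested. The RAB5 effectors EEA1, an early endosome tether, and APPL1 were downregulated, at -0.41 and -0.25 on the log2 scale. ZFYVE27 (protrudin), an effector of RAB11, was upregulated at 0.25. EXPH5, a RAB27 effector, and RAB11FIP4 were singled out after their values were seen, with log2 fold changes of 0.88 and -0.78 and control means of 74.8 and 81.9.

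Among 8 kinases and phosphatases of RABs, 1 was upregulated and 1 downregulated (12.5% each, near the backgrounds of 12.9% and 12.7%). LRRK2, which phosphorylates RAB10, RAB8A and RAB29, had 382, 459 and 405 normalized counts in control and 292, 266 and 275 in RSL3 libraries, without overlap (log2 fold change -0.58, adjusted p = 0.000115 in edgeR). STK4 had a log2 fold change of 0.15 (adjusted p = 0.00273 in edgeR).

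**Figure D5:**
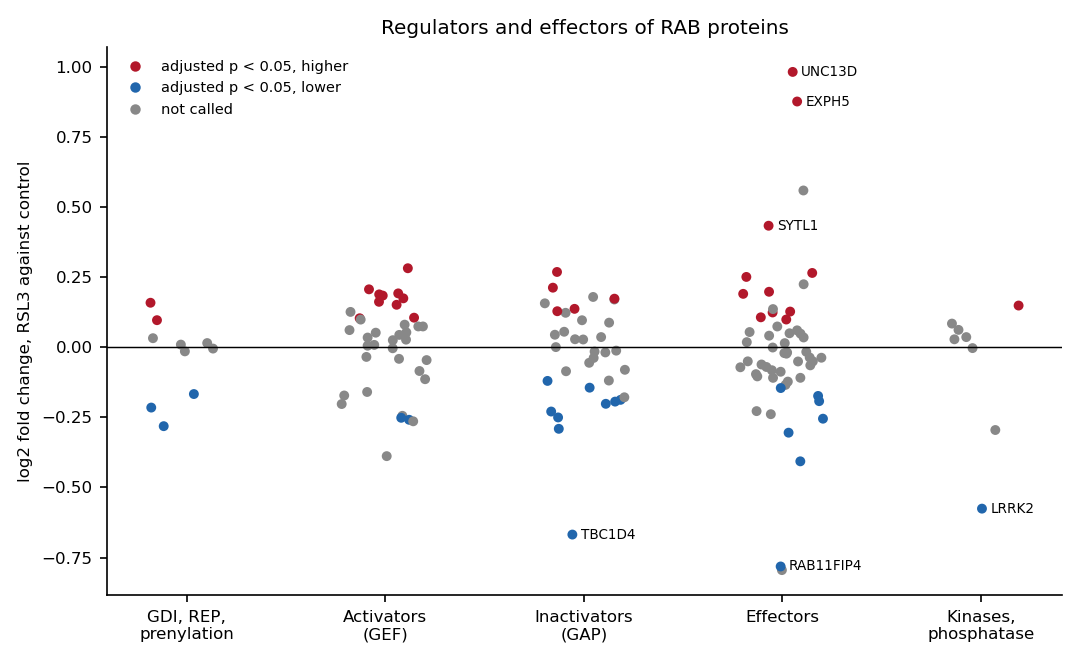
Log2 fold change of each of the 146 tested regulators and effectors of RAB proteins, RSL3-treated against control cells (n = 3 libraries each), by role; red and blue points were called upregulated and downregulated by edgeR and grey points were not called. UNC13D at 0.98 is the highest point, and TBC1D4 at -0.67 and LRRK2 at -0.58 are the lowest called points of their lists.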

How the data were processed

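Per the labels and the study's methods, poly(A) RNA of U87MG cells was sequenced in read pairs, reads were aligned to GRCh38.p4 with HISAT2, and HTSeq 0.6.1p1 counted them per gene on exons without regard to strand. The authors deposited raw counts per gene and library, unnormalized. The annotation release they counted on is not given in the sources used here. Members and gene lists were chosen with earlier results of these data known. Genes were kept by filterByExpr of edgeR 4.0.16 (R 4.3.3) at its default minimum of 10 counts. The quasi-likelihood F test compared 3 RSL3 with 3 control libraries after TMM scaling, without covariates, with Benjamini-Hochberg adjustment over 16105 genes. The script was tested on simulated data. Exon lengths and overlaps came from GENCODE v44. Values per library are given for RAB1A, RAB10, up to 4 called members per compartment and direction by p, and the most abundant member of each compartment. Of each other list, up to 3 called genes per direction by p are named, most of them with means or a log2 fold change only. Replicate numbers were not used to pair the libraries in the main comparison. Alternatives used other scaling, filters, thresholds, DESeq2 1.42.0 with 0, 1 or 2 surrogate variables (sva 3.50.0), a replicate block, and each library left out. Counts limit precision by counting error and by 3 libraries per group.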

Additional observations from a re-analysis of the deposited data

How the results depend on the processing

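Members called were 10 upregulated and 12 downregulated. With 2 surrogate variables in DESeq2, estimated on the filtered genes, these counts were 0 and 5, regulators and effectors 7 and 7, and all genes called 1338 in place of 4123. Those variables marked control replicates 1 and 2 singly, which leaves 1 control library for the comparison. With a floor of 1 on the mean normalized count for that step, which was added once the data had been seen, they left 5 upregulated members and 2453 genes. A minimum of 0.2 for the absolute log2 fold change left 5 and 5 members, 9 and 14 regulators and effectors and 2519 genes, and an adjusted p under 0.01 left 5 upregulated members and 2691 genes. Leaving out 1 library gave 6 to 10 upregulated and 9 to 12 downregulated members, 21 to 26 and 19 to 23 regulators and effectors, and 3081 to 3924 genes, with 6 upregulated members without RSL3 replicate 2. Of the 22 called members, 13 kept the call without any 1 library, and RAB27B, RAB31 and RAB30 kept it under all 17 alternatives. The direction turned for RAB40C, to a RAB40C log2 fold change of 0.014 with 2 surrogate variables and of -0.10 to 0.0010 with 1 library left out, and for RAB11B, to a RAB11B log2 fold change of -0.056 to 0.019 with 1 library left out. Neither was called. With 2 surrogate variables RAB38 was 0.32 and RAB7B -0.49 on the log2 scale, and neither was called. Control and RSL3 libraries with the same number deviated together little, with correlations of 0.02, 0.03 and 0.07. Correlations between libraries of different numbers ran from -0.05 to 0.02. The replicate block gave 10 and 13 members, adding RAB8B, 30 and 27 regulators and effectors and 4633 genes. Except for these fits, the cause of each shift was not tested.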
